A study of Mus musculus with 15 samples.

Results

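A set of 6 genes was followed that were less abundant at 300 than at 200 mM sorbitol and lie outside the main metabolic pathways. They are Ndrg2, Prkcb, Prelid2, Zranb2 and the non-coding RNA genes G530011O06Rik and Malat1, 6 of the 21516 gene symbols listed. They were chosen by their measured counts, on the fall from 200 to 300 mM, so that fall is given below as a description with no test. All 6 passed the count filter and were among the 9390 genes tested. Prkcb passed it only through groups where it was higher, since it had 3 to 9 counts per library at 250 mM and 2 to 5 at 300 mM.

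The cells were mouse embryonic stem cells of the REX-1 RFP line. A red fluorescent protein under the Rex1 promoter (Rex1, or Zfp42, is active in the undifferentiated state) was thus carried by every group. All groups were first grown with leukaemia inhibitory factor (LIF), the cytokine that keeps mouse stem cells undifferentiated, and then spent 72 h in their condition. The group NS (normal stemness, per the labels) kept LIF, ND (normal differentiation) was grown without it, and sorbitol, a sugar alcohol that raises osmolarity, was added at 200, 250 or 300 mM while LIF was kept in the last 3 groups. There were 3 libraries to a group, from triplicate experiments that the series' description calls biological. The labels give neither the strain nor the sex of the line, nor whether it is a clone.

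The libraries were 3' tag libraries (Lexogen's Quant-seq), which yield about 1 read per transcript near its 3' end, so levels are given as CPM (counts scaled to library size with TMM factors) without division by length. Total counts ran from 968556 to 2289528 per library, and 3 counts amounted to 1.31 to 3.10 CPM. Of the 8 stem cell markers listed, 7 were in the tables, and their summed level was 1672 to 2036 CPM in NS, 697 to 1393 in ND and 1859 to 2623 in the sorbitol libraries. These markers did not move alike. Raw counts over the NS and the 300 mM libraries were 414 and 257 for Pou5f1 and 2392 and 1371 for Sox2. Those of Zfp42 were 552 and 914, of Esrrb 817 and 1303 and of Tdgf1 1955 and 2159. Klf4 had 1249 and 1350, and Nanog 751 and 769. Markers of fibroblasts, such as feeder cells, summed to at most 12.6 CPM, with Col3a1, Postn and Lum at 0 counts everywhere. Expression of 78 ribosomal protein genes was uneven between libraries, with a median deviation from the 15-library mean of -0.49 in NS 1, -0.43 in NS 2 and 0.83 in ND 2 on the log2 scale, against -0.12 to 0.15 in the others.

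The 6 genes belong to different systems. Ndrg2 encodes a member of the N-myc downstream-regulated family, proteins with a hydrolase-like fold that are linked to growth arrest and stress and are phosphorylated by SGK kinases. Prkcb encodes the beta form of protein kinase C, a conventional isoform switched on by calcium and diacylglycerol. Prelid2 encodes a PRELI domain protein; the better studied members of that family carry phospholipids between the mitochondrial membranes together with Triap1. Zranb2 encodes a splicing factor with RanBP2-type zinc fingers and an arginine- and serine-rich tail. Malat1 is an abundant long non-coding RNA of nuclear speckles, the bodies in which splicing factors gather. Its mature 3' end carries no poly(A) tail, so an oligo(dT)-primed library captures it through an A-rich tract encoded in the gene. RefSeq lists G530011O06Rik as a long non-coding RNA, and it is described here without a role.

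Because the 6 genes were chosen for a like response to dose, their promoter windows are shown, so that what these share can be read beside the levels. Each runs from 250 bases before to 50 bases after the RefSeq start (GRCm38.p6, a later build than the mm9 on which the reads were counted). Windows were searched and are shown for 5 of the 6 genes. Prelid2 was left out of the search, and for Ndrg2 the first of its 3 is shown. Letters in capitals mark matches on either strand. The motifs searched were the POU octamer ATGCAAAT, the STAT element TTCNNNGAA, the heat shock core GAANNTTC, the core TGGAAA of the osmotic response element, the E-box CACGTG, the cAMP response motif TGACG, the CCAAT box and the TATA box TATAAA.
Ndrg2, chr14:51913955-51914254, minus strand: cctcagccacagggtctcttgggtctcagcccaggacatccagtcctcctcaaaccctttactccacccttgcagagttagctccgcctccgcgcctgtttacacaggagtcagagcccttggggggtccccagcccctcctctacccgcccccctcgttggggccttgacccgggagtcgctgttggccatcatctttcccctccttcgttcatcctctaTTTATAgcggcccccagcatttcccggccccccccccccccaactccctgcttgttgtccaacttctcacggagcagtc
Prkcb, chr7:122288875-122289174, plus strand: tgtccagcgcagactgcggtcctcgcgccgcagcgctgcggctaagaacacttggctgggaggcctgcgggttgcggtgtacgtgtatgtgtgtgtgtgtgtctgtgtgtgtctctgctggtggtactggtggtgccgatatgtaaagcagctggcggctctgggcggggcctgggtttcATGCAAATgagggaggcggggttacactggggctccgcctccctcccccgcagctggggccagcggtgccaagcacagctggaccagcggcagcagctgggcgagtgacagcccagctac
Zranb2, chr3:157533915-157534214, plus strand: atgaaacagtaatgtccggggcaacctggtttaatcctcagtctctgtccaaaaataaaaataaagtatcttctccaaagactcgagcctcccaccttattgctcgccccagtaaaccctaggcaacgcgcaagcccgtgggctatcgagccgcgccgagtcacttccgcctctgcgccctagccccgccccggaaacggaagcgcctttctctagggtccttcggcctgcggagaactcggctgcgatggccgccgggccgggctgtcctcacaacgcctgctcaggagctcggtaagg
Malat1, chr19:5802623-5802922, minus strand: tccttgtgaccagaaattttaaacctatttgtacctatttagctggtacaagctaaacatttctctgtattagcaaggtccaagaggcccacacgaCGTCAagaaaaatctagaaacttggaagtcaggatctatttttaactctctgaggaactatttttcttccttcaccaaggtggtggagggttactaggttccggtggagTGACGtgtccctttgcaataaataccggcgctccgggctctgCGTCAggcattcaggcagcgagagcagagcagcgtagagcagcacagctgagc
G530011O06Rik on X, chrX:169978868-169979167, minus strand: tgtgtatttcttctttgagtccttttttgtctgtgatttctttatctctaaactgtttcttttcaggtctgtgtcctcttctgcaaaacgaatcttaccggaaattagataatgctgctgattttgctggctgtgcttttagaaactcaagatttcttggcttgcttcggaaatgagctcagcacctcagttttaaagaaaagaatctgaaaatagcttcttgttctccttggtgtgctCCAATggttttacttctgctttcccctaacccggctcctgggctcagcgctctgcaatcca
G530011O06Rik on Y, chrY:90755001-90755300, minus strand: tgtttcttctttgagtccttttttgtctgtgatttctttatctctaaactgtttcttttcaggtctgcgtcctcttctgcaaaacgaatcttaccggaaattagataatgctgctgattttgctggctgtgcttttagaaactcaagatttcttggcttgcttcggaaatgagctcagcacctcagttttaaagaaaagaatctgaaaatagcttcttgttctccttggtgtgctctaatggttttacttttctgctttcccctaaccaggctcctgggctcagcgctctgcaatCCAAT

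Of the motifs searched, none was found in all of these windows. The Prkcb window held the octamer ATGCAAAT, the letters that POU factors such as Oct4 are known to bind, at position -70 from the start; 1.7% of the 32851 windows in the table hold it. The Ndrg2 window held TATAAA on the reverse strand at position -29 (13.6% of all windows). The Malat1 window held TGACG at positions -154, -45 and -3 (20.8% of all windows hold at least 1). The GC box GGGCGG, also searched but left in lower case, was found in the Ndrg2, Prkcb and Zranb2 windows (35.7% of all windows), and the 3 have 62.3%, 65.3% and 59.3% G and C against a median of 52.7%. The Malat1 window has 47.0%, and those of G530011O06Rik have 41.3% on X and 40.7% on Y. The core TGGAAA was found in none of these windows (21.4% of all windows hold it). A match is no evidence of binding, and a window without one says nothing of the factor. Both windows of G530011O06Rik held CCAAT, at position -11 on X and 46 on Y (37.4% of all windows). The X and Y windows of G530011O06Rik were 96.4% identical in a global alignment, with 293 identical positions, 3 mismatches and 8 gap positions. The reads lie near the 3' end, which was not compared between the copies. Whether reads of this gene are shared between them is thus not known, and its counts are uncertain in this respect.

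Prkcb (ENSMUSG00000052889, chromosome 7) had the largest log2 fall of the 6 with sorbitol dose. Its NS libraries had 17.2, 19.99 and 40.2 CPM and those of ND 29.8, 23.9 and 31.0. With sorbitol the libraries of replicates 1, 2 and 3 had 11.4, 21.97 and 16.3 CPM at 200 mM, 4.71, 2.38 and 5.54 at 250 mM, and 2.72, 2.53 and 1.84 at 300 mM. The libraries of the upper and the lower doses were apart: every library at 250 and 300 mM lay below every library of NS, ND and 200 mM, while 250 and 300 mM overlapped. The mean at 300 mM was 14.3% of that at 200 mM, with a log2 change of -2.70 ± 0.48 (SE), and most of it lay in the step from 200 to 250 mM (-1.91 ± 0.44) rather than from 250 to 300 mM (-0.80 ± 0.55). The low end rests on few reads, 10 counts over the 300 mM libraries against 64 at 200 mM and 103 in NS. The ratio of 300 mM to NS counts, scaled to library size, was 0.102, with an exact binomial 95% interval of 0.0475 to 0.195 that covers counting error only. In bulk libraries such a difference cannot be told apart from a change in the number of cells that express the gene.

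Ndrg2 (ENSMUSG00000004558, chromosome 14) was lower at each higher dose, by steps of like size. It had 123, 77.2 and 76.7 CPM in the NS libraries, 151, 76.4 and 102 in ND, and 124, 99.4 and 45.7 at 200 mM. At 250 mM the libraries had 23.0, 54.8 and 37.2 CPM, and at 300 mM 16.9, 17.7 and 20.3. The groups NS, ND and 200 mM overlapped one another, 200 and 250 mM overlapped through library 3 of the lower dose, and the 300 mM libraries lay below all others. The mean at 300 mM was 20.3% of that at 200 mM (log2 change -2.31 ± 0.41 SE), with -1.25 ± 0.38 from 200 to 250 mM and -1.06 ± 0.41 from 250 to 300 mM. At 200 mM the spread was wide, 89.9 ± 40.2 CPM (SD, n = 3), against 18.3 ± 1.77 at 300 mM.

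Zranb2 (ENSMUSG00000028180, chromosome 3) was among the most even of the 6 between replicates and was already low at 200 mM. Its levels were 225, 216 and 209 CPM in NS and 201, 230 and 203 in ND. They were 152, 164 and 142 CPM at 200 mM, 89.0, 79.4 and 96.6 at 250 mM and 72.4, 75.0 and 84.7 at 300 mM. NS and ND overlapped, the 200 mM libraries lay below both, and the 250 and 300 mM libraries lay below those at 200 mM but overlapped each other. The fall from 200 to 300 mM was the smallest of the 6 on the log2 scale, -0.98 ± 0.19 (SE), of which -0.79 ± 0.19 came in the first step. The mean was 70.5% of that in NS at 200 mM, 40.7% at 250 mM and 35.7% at 300 mM.

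**Figure D1:**
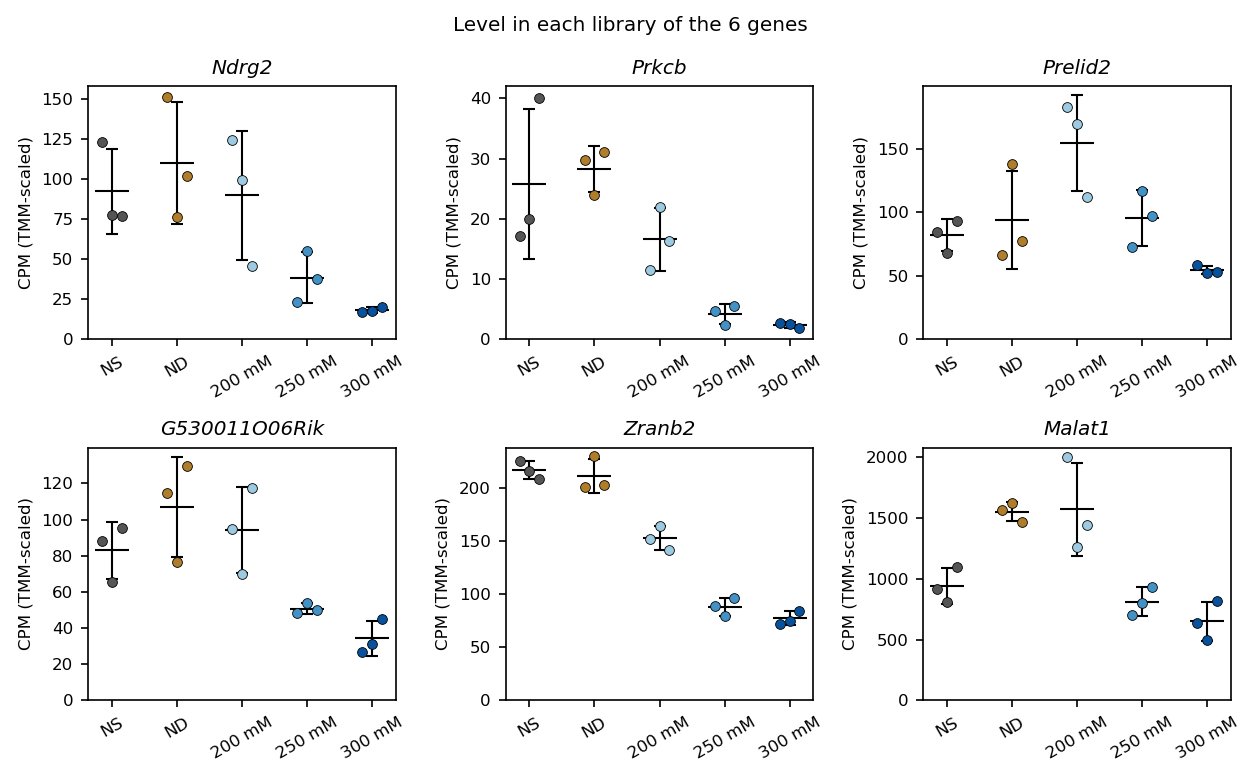
Level of each of the 6 genes in every library, in CPM scaled with TMM factors (linear axis from 0), by group. Points are the 3 libraries, bars the mean ± SD; the 300 mM libraries of Prkcb sit between 1.84 and 2.72 CPM, and Prelid2 and Malat1 stand highest at 200 mM.

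G530011O06Rik (ENSMUSG00000072844, listed on chromosomes X and Y) had 87.9, 65.4 and 95.5 CPM in NS, 115, 76.4 and 130 in ND and 95.1, 70.1 and 118 at 200 mM, so that these groups overlapped. It had 48.2, 54.0 and 49.9 CPM at 250 mM and 26.7, 31.2 and 45.1 at 300 mM. The libraries of these doses lay below all of the former and did not overlap each other. From 200 to 300 mM the log2 change was -1.47 ± 0.29 (SE), of which -0.90 ± 0.28 came in the first step. In RefSeq (GRCm38.p6) the gene overlaps Mid1, a gene for a microtubule-associated ubiquitin ligase. The strand setting of the counting is not given in the sources used here, so reads of overlapping genes may not be told apart. Mid1 had 189 ± 45.9 CPM in NS, 136 ± 35.2 in ND, 172 ± 34.6 at 200 mM, 77.1 ± 7.84 at 250 mM and 83.2 ± 15.6 at 300 mM (SD, n = 3 each). Its part in the values of G530011O06Rik was not tested. The annotation also places Mir186 within Zranb2, Mascrna at Malat1, and predicted genes at Prkcb (Gm51497, Gm14388) and Prelid2 (Gm18371), with none at Ndrg2.

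Malat1 (ENSMUSG00000092341, chromosome 19) and Prelid2 (ENSMUSG00000056671) had another shape, with the highest mean of the 5 groups at 200 mM. Malat1 had 913, 808 and 1097 CPM in NS, 1567, 1617 and 1466 in ND and 2000, 1263 and 1440 at 200 mM. At 250 mM it had 699, 799 and 935 CPM and at 300 mM 634, 496 and 819. The ND and 200 mM libraries overlapped and lay above those of every other group, while NS, 250 and 300 mM overlapped one another. Its mean at 200 mM was 167% of that in NS and its mean at 300 mM 69.2%, and the log2 change between these doses was -1.27 ± 0.24 (SE), with -0.95 ± 0.24 in the first step.

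Prelid2 had 84.6, 68.2 and 92.8 CPM in NS, 66.3, 138 and 77.2 in ND and 183, 169 and 112 at 200 mM. The libraries at 250 mM had 72.8, 117 and 97.4 CPM and those at 300 mM 58.2, 52.2 and 52.5. The 200 mM libraries overlapped those of 250 mM and ND, the groups NS, ND and 250 mM shared a range, and the 300 mM libraries lay below all others. The mean was 189% of that in NS at 200 mM, 117% at 250 mM and 66.4% at 300 mM. The fall of -1.51 ± 0.30 (SE) on the log2 scale was split evenly, -0.70 ± 0.29 and -0.81 ± 0.30. The high ND library, ND 2, is the one with the high ribosomal protein level.

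**Figure D2:**
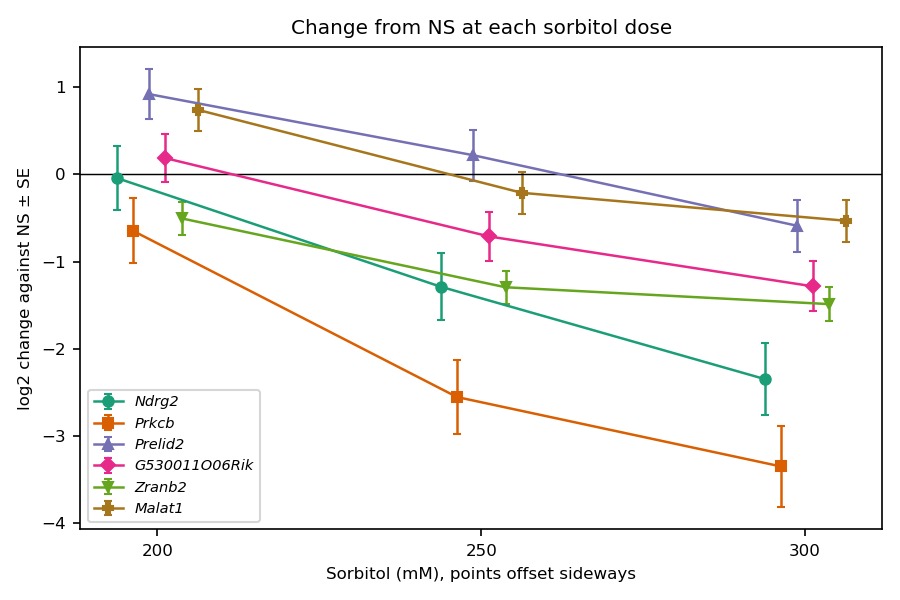
Log2 change against NS (vertical axis, ± SE from edgeR) of the 6 genes at 200, 250 and 300 mM sorbitol (horizontal axis; points are offset sideways for legibility and lines join the doses of 1 gene). Prelid2 and Malat1 start above 0 at 200 mM, with 0.92 and 0.74, and Prkcb ends lowest at -3.35.

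The 6 genes differed in where the fall left them relative to the NS cells, a reading that shares its libraries with the rule and is given without a test. At 200 mM the log2 change against NS was 0.92 ± 0.29 (SE) for Prelid2, 0.74 ± 0.24 for Malat1, 0.19 ± 0.27 for G530011O06Rik, -0.04 ± 0.37 for Ndrg2, -0.51 ± 0.19 for Zranb2 and -0.65 ± 0.37 for Prkcb. At 300 mM the same change was negative for each, from -0.53 ± 0.24 for Malat1 and -0.59 ± 0.30 for Prelid2 over -1.29 ± 0.29 for G530011O06Rik and -1.49 ± 0.19 for Zranb2 to -2.35 ± 0.41 for Ndrg2 and -3.35 ± 0.47 for Prkcb. Among the 9390 tested genes, ranked from the largest fall between 200 and 300 mM, Prkcb was number 14, Ndrg2 number 24, Prelid2 number 116, G530011O06Rik number 129, Malat1 number 208 and Zranb2 number 454. As background, 2 of all the tested genes (0.0213%) were called by edgeR in that contrast, and no test is given for the 6.

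Withdrawal of LIF moved the level of no member past the threshold. This comparison sets ND against NS, but its filter, scaling and estimate of spread came from the fit of all 15 libraries, those with sorbitol included. In ND against NS the log2 change was 0.72 ± 0.24 (SE) for Malat1, whose 3 ND libraries all lay above the 3 NS libraries; by edgeR's quasi-likelihood method the p, adjusted over all genes after Benjamini and Hochberg, was 0.542 (unadjusted p = 0.00794). The others lay between -0.04 ± 0.19 for Zranb2 and 0.37 ± 0.27 for G530011O06Rik, with adjusted p from 0.854 to 0.983, and the NS and ND libraries overlapped for each of them. Of the 6 genes 0 passed in edgeR and 0 in DESeq2, which gave no adjusted p for Prkcb here. In edgeR 1 of them, Malat1, had an unadjusted p under 0.05. Among all genes 3 passed in this comparison (0.0319%) and 600 had an unadjusted p under 0.05, so few genes of any kind were called. That count was 0 without NS 1, NS 2, ND 1 or ND 2, 74 without NS 3, and 1 without Sorb200 2 or any 1 library at 250 or 300 mM.

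Averaged over the sorbitol doses, Prkcb, Zranb2 and Ndrg2 were lower than in NS. This comparison sets the mean of the 3 sorbitol groups, with equal weights, against NS. It includes the 200 and 300 mM libraries that chose the genes, so it is not independent of the choice, and the calls support nothing beyond the levels themselves. For Ndrg2, which at 200 mM stood at -0.04 ± 0.37 (SE) against NS on the log2 scale, the lower mean is made up of the levels at 250 and 300 mM; Zranb2 was below NS in every library of each dose. The log2 change was -2.18 ± 0.31 (SE) for Prkcb (adjusted p = 0.000542, edgeR), -1.10 ± 0.15 for Zranb2 (adjusted p = 0.000321) and -1.23 ± 0.29 for Ndrg2 (adjusted p = 0.0164). For Prkcb and Ndrg2 all 6 libraries at 250 and 300 mM lay below the 3 NS libraries. G530011O06Rik had a log2 change of -0.60 ± 0.22 (adjusted p = 0.0948), Prelid2 of 0.18 ± 0.24 and Malat1 of -0.00 ± 0.19, and these did not pass. Of the 6 genes 3 were called, all lower, beside 8.78% of all tested genes called, 5.45% lower and 3.32% higher; since the genes were chosen for a fall within these libraries, nothing is read from that share. The call of Ndrg2 was lost without NS 1, which had its highest NS level (log2 change -0.96, adjusted p = 0.154). The count over all genes was 824, but 226 without NS 1, 261 without NS 2 and 1680 without NS 3. Ribosomal protein genes were low in NS 1 and NS 2, and what part this has in the results was not tested.

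Against the LIF-free ND cells, 5 of the 6 genes were lower in the mean of the sorbitol groups. The log2 change was -2.35 ± 0.31 (SE) for Prkcb (adjusted p = 0.000161, edgeR), -1.48 ± 0.29 for Ndrg2 (0.00351), -1.06 ± 0.15 for Zranb2 (0.000273), -0.97 ± 0.21 for G530011O06Rik (0.00803) and -0.72 ± 0.19 for Malat1 (0.0206). Prelid2 did not pass, at 0.00 ± 0.26 (adjusted p = 0.998). This mean, too, holds the libraries that chose the genes: at 200 mM Malat1 (1568 ± 385 CPM) was not below ND (1550 ± 77.1 CPM; SD, n = 3 each), the G530011O06Rik and Ndrg2 libraries overlapped those of ND, and for these 3 genes the lower mean comes with the levels at 250 and 300 mM. In this comparison 10.5% of all tested genes were called, 5.85% lower and 4.62% higher, and nothing is read from the members' share. The 2 sorbitol comparisons share their sorbitol libraries, and the first shares its NS libraries with the comparison of ND and NS, so the results are not independent of each other. Malat1 was lost without ND 1 (adjusted p = 0.0684) or ND 2 (0.0629) and G530011O06Rik without ND 3 (0.0548). The count over all genes, 983, was 646 without ND 1 and 537 without ND 2.

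**Figure D3:**
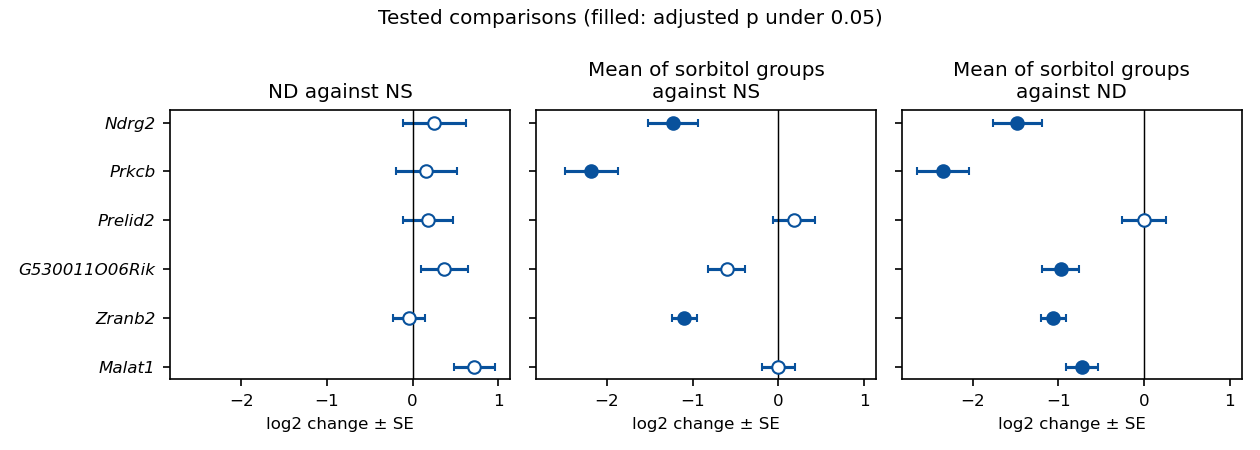
Log2 change ± SE (horizontal axis) of the 6 genes in the tested comparisons; filled points passed an adjusted p of 0.05 in edgeR. No point is filled for ND against NS, 3 are for sorbitol against NS and 5 for sorbitol against ND; the sorbitol means include the libraries that chose the genes.

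Among the relatives of Prkcb no call was made. Of 8 listed relatives in the tables (Prkca, Prkce and the other isoforms), 4 had enough counts to be tested and 0 were called in the 3 comparisons in edgeR. The atypical isoform Prkci, which needs neither calcium nor diacylglycerol, had 65.4 CPM in NS and 88.4, 150 and 116 at 200, 250 and 300 mM (log2 change of the sorbitol mean against NS 0.83 ± 0.66 SE, adjusted p = 0.464). Prkcz, the other atypical form, and Prkcd, a form that needs no calcium, had log2 changes of 0.05 ± 0.39 and 0.11 ± 0.38. The median of the 4 was 0.47, against -0.01 over all tested genes. Of 11 tested genes for phospholipase C, diacylglycerol kinases, and substrates and anchors of protein kinase C, the scaffold gene Akap12 fell against NS (-0.59 ± 0.18, adjusted p = 0.0476, edgeR), and Dgke, a kinase gene that removes diacylglycerol and was chosen after its values were seen, rose (1.11 ± 0.30, adjusted p = 0.028). The receptor for activated kinase, listed as Gnb2l1, had a change of -0.14 ± 0.22 and the substrate gene Marcks of -0.01 ± 0.24.

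The other NDRG genes gave no call either. Ndrg1, a gene known to be raised by low oxygen, had 38.2 CPM in NS, 85.2 in ND and 40.7, 52.4 and 32.0 at 200, 250 and 300 mM, with log2 changes of 1.15 ± 0.47 (SE) for ND against NS (adjusted p = 0.687) and 0.12 ± 0.39 for sorbitol against NS. Ndrg3 had 14.7 CPM in NS and 22.8 at 300 mM (0.63 ± 0.31, adjusted p = 0.221). Of these and Ndrg4, 0 of 3 passed in any of the 3 comparisons in edgeR, and their median change against NS was 0.58. Among the SGK kinases, which phosphorylate NDRG proteins, Sgk1 was higher with sorbitol than in ND, at 51.6, 73.6 and 77.3 CPM with rising dose against 23.9 in ND (1.44 ± 0.30, adjusted p = 0.00557, edgeR). Against NS, with 55.0 CPM, its change was 0.27 ± 0.27 (adjusted p = 0.574).

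The genes around Prelid2 gave mixed values. Triap1, the partner of the PRELI proteins, had 175 CPM in NS and 246 at 300 mM (log2 change of the sorbitol mean 0.39 ± 0.20 SE, adjusted p = 0.234), and Prelid1 70.6 and 116 CPM (0.63 ± 0.31, adjusted p = 0.222). Slmo2, a family member that carries phosphatidylserine, fell against NS (-0.65 ± 0.18, adjusted p = 0.0297, edgeR) and was the 1 of 4 tested relatives that passed. From 200 to 300 mM 0 of these 4 had a negative change, with a median of 0.23. A list for mitochondrial phospholipids, not all of it genes for mitochondrial enzymes, held 8 tested genes. Of these Ptdss1, which makes phosphatidylserine, rose both against NS (1.14 ± 0.29, adjusted p = 0.0229, edgeR) and against ND (1.12 ± 0.29, adjusted p = 0.0202). It had 74.6 CPM in NS and 139, 165 and 197 at rising dose.

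Most splicing factor genes tested did not pass beside Zranb2. Of 23 tested genes for SR proteins, their kinases and the early spliceosome, 1 fell and 0 rose against NS, and the same holds against ND. The gene is Srpk2, a kinase of SR proteins chosen after its values were seen, with log2 changes of -0.62 ± 0.17 (SE, adjusted p = 0.0353, edgeR) and -0.90 ± 0.17 (adjusted p = 0.00325). Their median against NS was -0.06, near that of -0.01 over all tested genes. The abundant members Srrm1 (-0.23 ± 0.22 SE), Srsf1 (0.58 ± 0.46), Snrnp70 (0.45 ± 0.46) and Srsf2 (-0.12 ± 0.17) did not pass. Of the other RanBP2-type zinc finger genes 5 were tested and 0 passed in any comparison in edgeR, with -0.60 ± 0.28 for Rbm10 and -0.21 ± 0.39 for Rbm5.

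Among other long non-coding RNAs, several fell with sorbitol against NS, a comparison in which Malat1 did not pass. Of 11 tested, 4 fell against NS and 0 rose, with a median log2 change of -0.60. Over all tested genes 5.45% were called lower in this comparison. Snhg1, among the most abundant of the 11, did not pass (log2 change -0.14 ± 0.48 SE, adjusted p = 0.898, edgeR). Gas5, a host gene of small nucleolar RNAs, fell (log2 change -1.204 ± 0.22 SE, adjusted p = 0.00351, edgeR), as did Snhg3, another such host (-1.41 ± 0.35, adjusted p = 0.021). Meg3 (-1.60 ± 0.36, adjusted p = 0.0122) and Mirg (-2.03 ± 0.48, adjusted p = 0.0159), maternally expressed RNAs of the same imprinted region and chosen here after their values were seen, fell as well. Neat1, the paraspeckle RNA encoded next to Malat1, had 230 CPM in NS, 227 in ND, 213 at 200 mM and 81.0 and 81.2 at 250 and 300 mM (-1.03 ± 0.40, adjusted p = 0.113). Against ND 3 of the 11 fell, namely Gas5, Meg3 and Snhg12, the last also chosen after its values were seen. Over all tested genes 5.85% were called lower against ND. From 200 to 300 mM 10 of the 11 had a negative change, with a median of -0.59 against -0.02 over all tested genes, a description since this is the contrast by which Malat1 was chosen. Of 8 tested genes of speckles and paraspeckles, Neat1 included, 0 passed against NS in edgeR and 1 fell against ND, Matr3 (-0.77 ± 0.18, adjusted p = 0.0113), chosen after its values were seen.

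**Figure D4:**
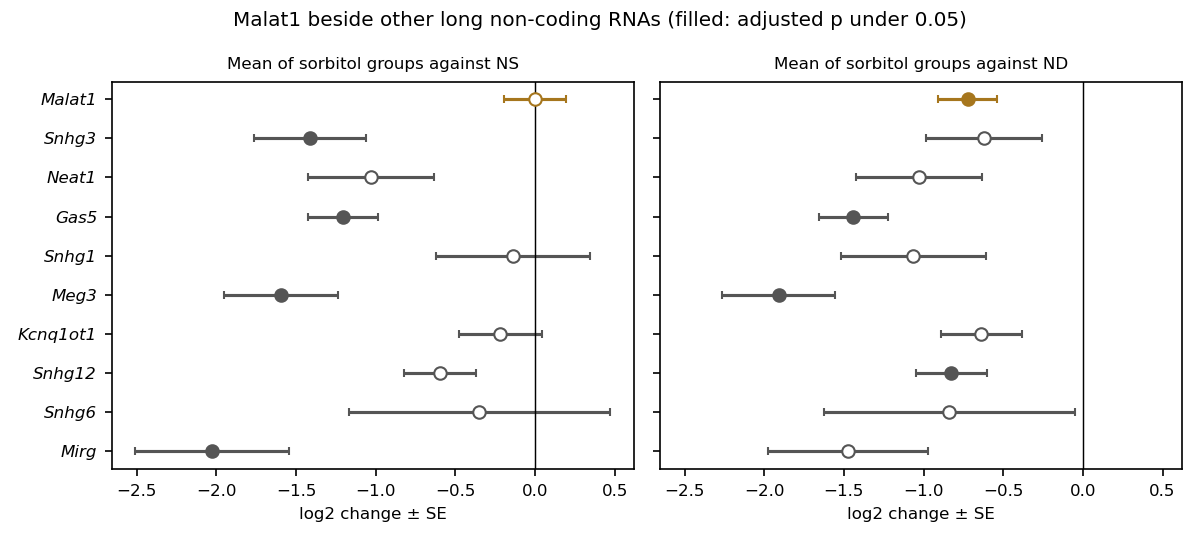
Log2 change ± SE (horizontal axis) of Malat1 (brown) and of the listed long non-coding RNAs with at least 20 CPM or a call, for the mean of the sorbitol groups against NS (left) and ND (right); filled points passed an adjusted p of 0.05 in edgeR. Against NS Malat1 lies at -0.00 and Meg3 at -1.60.

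The genes with the most similar pattern differed between the members. Similarity was the Pearson correlation of log2 CPM over the 15 libraries among 6202 genes with a mean of at least 20 CPM; the libraries share groups and depth, and r is a description. Nearest to Zranb2 were G2e3 (r = 0.965), Top2a (0.956) and Ralgps2 (0.951). Nearest to Prkcb were Xlr3a (0.939), again G2e3 (0.908) and Cenpf (0.907). Top2a, the DNA topoisomerase of dividing cells, had 1279 ± 138 CPM in NS, 1260 ± 175 in ND and 831 ± 141, 573 ± 36.4 and 538 ± 47.7 at 200, 250 and 300 mM (SD, n = 3 each), the order of groups seen for Zranb2. Xlr3a belongs to a family of near-identical copies, so its counts are uncertain.

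Ndrg2 was nearest to Nmt2 (r = 0.939), Cyp51 (0.930) and Egln3 (0.915). Cyp51, an enzyme of cholesterol synthesis, had 234 ± 11.8 CPM in NS and 116 ± 10.6 at 300 mM, and Egln3, an oxygen-sensing hydroxylase, 72.9 ± 22.1 and 3.49 ± 1.93 (SD, n = 3 each). G530011O06Rik was nearest to Smc2 (0.908), Ccdc88a (0.905) and Cenpe (0.892). For Malat1 the nearest were Nktr (0.858), Pawr (0.857) and Zbtb11 (0.852), and for Prelid2 Acp5 (0.870), Cox7a1 (0.822) and Cep350 (0.788). Among the members themselves r over the 15 libraries was highest between Prkcb and Zranb2 (0.948) and lowest between Prelid2 and Zranb2 (0.349), and the rule favours positive values, since all fall over the same doses. Over the 6 NS and ND libraries alone, which the rule did not use, r between Prkcb and Zranb2 was -0.68. The pairs of members ran there from -0.744 (G530011O06Rik and Zranb2) to 0.686 (Prelid2 and Zranb2). With 6 libraries nothing is read from these values.

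Markers of other cell types also differed between the groups, not all in step with the dose. The summed level of 8 trophoblast markers was 30.9 to 65.1 CPM in NS, 68.0 to 148 in ND, 128 to 411 at 200 mM, 310 to 446 at 250 mM and 264 to 398 at 300 mM, with Cdx2 at 0 counts in NS and ND and 8 at 300 mM. Most of this sum was the keratins Krt8 and Krt18, with 35 and 87 counts in NS. At 200, 250 and 300 mM Krt8 had 221, 540 and 365 counts and Krt18 had 855, 706 and 669. Gata2 had 4 counts in NS and 41, 99 and 82 at these doses, and Elf5 had 2 in NS and at 300 mM. Eomes (77, 92 and 112) and Gata3 (34, 44 and 48) had more counts at each higher dose. The sum of 8 primitive endoderm markers was 33.4 to 43.7 CPM in NS, 25.5 to 43.5 in ND, and 64.9 to 95.6, 90.5 to 138 and 127 to 157 at the 3 doses. Most of it was Col4a1 and Lama1, with 70 and 45 counts in NS. At 200, 250 and 300 mM Col4a1 had 186, 215 and 324 counts and Lama1 had 94, 86 and 116. Gata6 had 12 counts in NS and 35, 110 and 76 at these doses, and Gata4 had 7 in NS and at 300 mM. Neural markers stood at 115 to 169 CPM in NS and 106 to 119 at 300 mM, of which most was Tubb3, and mesoderm markers stayed at or below 9.42 CPM. The part of these markers' cells in the levels of the 6 genes was not tested.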

How the data were processed

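Per the submitters' processing notes, base calling used CASAVA 1.8.2, alignment STAR and counting HTSeq on mm9, and the authors' tests used edgeR. Not given in the sources used here are the versions of STAR and HTSeq and the annotation, strand setting and filters of the counting. Of the 4 deposited tables only the raw counts per library were used, joined on symbol; the NS counts were identical in all 4.

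Tests used the quasi-likelihood functions of edgeR 4.0.16 (R 4.3.3) after TMM scaling. Genes had to pass filterByExpr with a count of 10 and a total of 15, which left 9390, and p-values were adjusted over these (Benjamini-Hochberg, threshold 0.05). The fit held all 15 libraries, 5 group means and no block, and the procedure was tested on simulated data. Each SE was derived from the log2 change and its F statistic. CPM values use the TMM factors, and similarity between genes used log2 CPM with a prior count of 2. With 3 libraries per group, p-values measure the spread between replicates described as biological. Alternatives were RLE size factors, library totals, no filter, DESeq2 1.42.0, a replicate block, only the groups compared, replicates 2 and 3 alone, and leaving out each library.

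The members and lists were chosen with earlier results of these data known. Named are the members, up to 4 listed relatives or partners per list (past the threshold or with at least 20 CPM, by level) and the 3 genes most like each member. Further called genes outside this rule are marked in the text as chosen after their values were seen. Intervals cover counting error only. Promoter windows come from RefSeq (GRCm38.p6).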

Additional observations from a re-analysis of the deposited data

How the results depend on the processing

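Over 22 alternatives the 6 genes kept a negative change from 200 to 300 mM, from -3.05 (Prkcb) to -0.93 (Zranb2). The genes were chosen for that fall in these same libraries, so the sign could hardly turn and nothing is read from it. Of 396 values of the 6 genes in the tested comparisons 388 kept their label as called or not called, 7 were lost, 1 was gained and 0 of the called ones turned. Many of these were not called to begin with, among them all of ND against NS. Many alternatives also left out a library of a group not compared. The share kept is thus largely set by the design, and nothing is read from it. Prkcb had no adjusted p in DESeq2 for ND against NS and is counted there as not called. Against NS 2 to 3 of the 6 genes were called without any 1 library, against ND 4 to 5, and in ND against NS 0 throughout. With replicates 2 and 3 alone, Ndrg2 was lost against NS (adjusted p = 0.139), 3 genes were called against ND, G530011O06Rik (0.128) and Malat1 (0.0951) being lost, and all-gene counts were 127 against NS, 404 against ND and 0 in ND against NS. Libraries of the same number deviated together from their groups (correlation over 0.1) in 24 of 30 pairs, and 10 of 15 libraries correlated best with their own number in every other group, a hint from the data and not the design; replicate 1 of each group was also the deepest (1872918 to 2289528 counts against 968556 to 1229075). All 3 pairs exceeded 0.1 for 4 of 10 pairs of groups. Among these are 200 mM against NS and the steps from 200 to 250 and from 250 to 300 mM, where the block moved no log2 change of the 6 genes by more than 0.0577 (for the steps an alternative chosen after seeing the data). In each tested comparison at least 1 pair stayed below 0.1, so the fit without the block was kept, and whether the numbers mark a shared batch is not known. The replicate block called 40 genes in ND against NS, 2015 in sorbitol against NS and 1830 against ND, and G530011O06Rik passed against NS (adjusted p = 0.0202). For ND against NS the all-gene count was 1 with RLE factors, 37 without a filter, 33 in DESeq2 and 0 with only the groups compared. Without any 1 library all-gene counts ran from 0 to 74 in ND against NS, 226 to 1680 against NS and 537 to 1243 against ND. With library totals alone, 494 rose and 418 fell against ND, where TMM gave 434 and 549. Where calls changed, the cause was not tested. Depth limits Prkcb most, at 2 to 5 counts per library at 300 mM.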
